A study of Mus musculus with 2 samples.

Results

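Open chromatin at the axon guidance ligands and receptors was described in frontal cortex of young mice. The genes were chosen by symbol from GENCODE vM21: every protein-coding semaphorin, ephrin, Slit and netrin (Ntn1, Ntn3, Ntn4 and Ntn5) as ligands, and every plexin, Eph receptor, Robo, Unc5 gene and Dcc as receptors. The rule found 67 genes among 21911 protein-coding genes on chromosomes 1 to 19, X and Y, of which 35 encode ligands and 32 encode receptors. No measured value entered the rule. DNase-seq was used, in which DNase I cuts accessible DNA in isolated nuclei and the cut ends are sequenced. The labels give 1 group, frontal cortex tissue of male B6CASTF1/J mice (the F1 cross of C57BL/6J and CAST/EiJ) at 10 days of age, with 2 biological replicates. A note on each label names 3 males, and both replicates carry the same donor entry, so whether the animals were separate is not settled and the spread between libraries may be partly technical. No treatment or mutant allele is named.

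Axon guidance proteins steer growing axons and later shape dendrites and synapses. Semaphorins act mainly through plexins, ephrins through Eph receptor tyrosine kinases, Slits through Robo receptors, and netrins through Dcc, which attracts, and the Unc5 receptors, which repel. Class 3 semaphorins, Slits and netrins are secreted, the semaphorins of classes 4 to 7 and the ephrins are tied to the membrane, and ephrins can also signal into the cell that carries them. In the postnatal cortex these systems are known for wiring of callosal and corticofugal axons, for interneuron migration and for synapse maturation.

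Replicate 1 had 39608 peaks in the list used throughout and replicate 2 had 45915, and 80.1% and 69.6% of them overlapped a peak of the other library. The step between deposited densities gave replicate 2 a depth 1.64 times that of replicate 1, and the absolute depth is not known. Among marker genes of cortical neurons and forebrain, 7 of 10 had a promoter peak in both libraries, and Tbr1 and Neurod6 had one in replicate 2 alone. The hindbrain list had none of 5, the microglia and endothelium lists 1 of 5 each, the astrocyte, interneuron and mural cell lists 2 of 5 each, and the oligodendrocyte list 3 of 6. Over all protein-coding genes it was 54.9%. Shared distal peaks, defined below, gave another order. At least 1 was found in 5 of 5 astrocyte, 4 of 6 oligodendrocyte, 3 of 5 endothelium and 4 of 10 cortical neuron genes. It was 2 of 5 for microglia and for interneurons, 1 of 5 for mural cells and 0 of 5 for hindbrain, against 21.5% of all genes. In whole tissue, a weak peak in all cells and a strong peak in a few cells cannot be told apart.

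Peaks were assigned to a promoter where their midpoint was at most 1 kb from a start of transcription (TSS) that the annotation gives for the gene. Of the 67 genes, 48 (71.6%) had one in both libraries, against 54.9% of all protein-coding genes. Receptors had one more often than ligands: 27 of 32 receptors (84.4%) and 21 of 35 ligands (60%). A single library held the promoter peak of 6 genes, all ligands. Efna1, Ntn4, Sema3e, Sema3f and Sema5a had one in replicate 1 alone, which 2.66% of all genes did, and Sema4a in replicate 2 alone, which 1.83% did. The remaining 13 genes had none in either library, against 40.6% of all genes. No receptor had one in a single library alone, but the peaks of Plxnb1 in replicates 1 and 2 lay at different annotated starts.

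**Figure D1:**
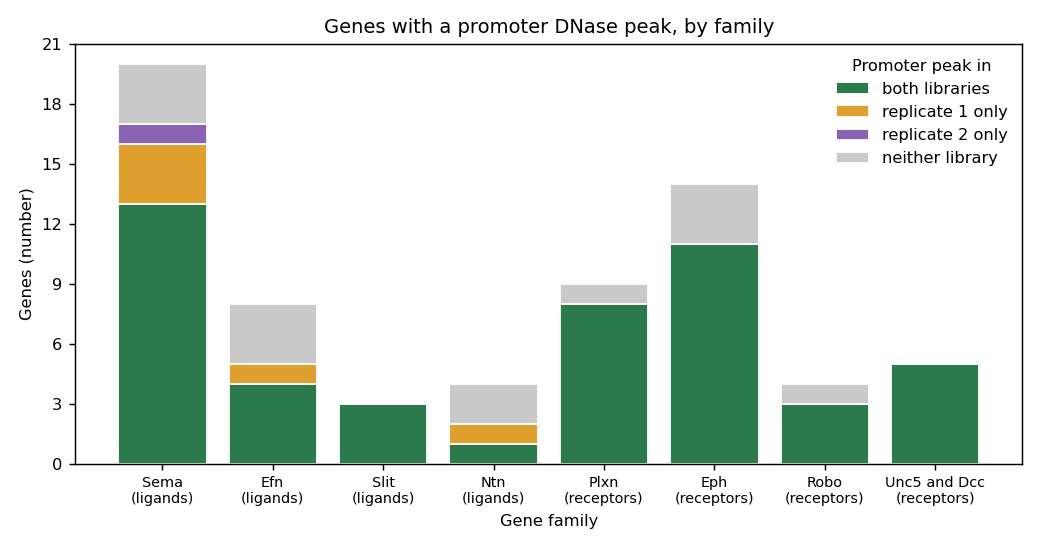
Number of genes in each ligand and receptor family (y axis) by the libraries in which a promoter peak was found (colours). All 6 genes with a peak in 1 library only belong to the semaphorins, ephrins and netrins, and all 3 Slit genes and all 5 Unc5 and Dcc genes have one in both. With a window of 500 bp, Slit1, Slit3, Epha10 and Robo3 lose that call.

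The gap between ligands and receptors was smaller in a looser peak list and stayed in a stricter one. In the looser list, called at a false discovery rate (FDR) of 0.05 in place of 0.001, 28 ligands (80.0%) and 28 receptors (87.5%) had a promoter peak in both libraries, against 61.0% of all genes. The ligands gained there were Efna1, Ntn1, Ntn4, Sema3e, Sema4a, Sema4g and Sema5a, and the receptor was Ephb6. In the stricter list, at FDR 0.0001, 19 ligands (54.3%) and 24 receptors (75.0%) had one in both libraries, against 52.8% of all genes. In replicate 1 by itself, 26 ligands and 27 receptors had a promoter peak, against 57.6% of all genes. In replicate 2 by itself it was 22 ligands and 27 receptors, against 56.7%. Hotspots, the broader regions of enriched cleavage, covered a TSS in both libraries for 54 of the 67 genes, 28 ligands and 26 receptors, against 59.0% of all genes. Among the 13 genes without a promoter peak, 6 had 0 bases under FDR 0.05 within 1 kb of a TSS in both libraries: Sema3g, Efna2, Efna4, Epha1, Epha8 and Robo4. Over all genes, 62.1% had at least 1 such base in both libraries. For Sema3g the measures differed, since a hotspot covered a TSS of it in both, with a −log10 FDR of 1.99 and 1.32. No hotspot covered a TSS of Efna2, Efna4, Epha1, Epha8 or Robo4 in either library.

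Where they had a promoter peak, these genes had lower medians of peak strength than all genes did. Peak strength is the authors' read-depth normalised density, given below as its percentile within the library. The median percentile of the strongest promoter peak was 67.4 over 53 genes in replicate 1 and 72.4 over 49 genes in replicate 2, against 83.3 and 85.1 over all genes with one. Only 5 of the 48 genes (Ephb3, Epha7, Efnb2, Sema4b and Plxnc1) were above the 90th percentile in both libraries, against 33.0% of the 12027 genes with a promoter peak in both. The order of the 48 genes was alike in the libraries, with a Spearman correlation of 0.934 as a description, since the points share the libraries and the genome. The median absolute difference in percentile between libraries was 4.57 over the 48 genes and 2.12 over all 12027. Ligands had medians of 57.8 over 26 genes and 74.3 over 22 genes in replicates 1 and 2, and receptors 72.5 and 72.1 over 27 genes in each.

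**Figure D2:**
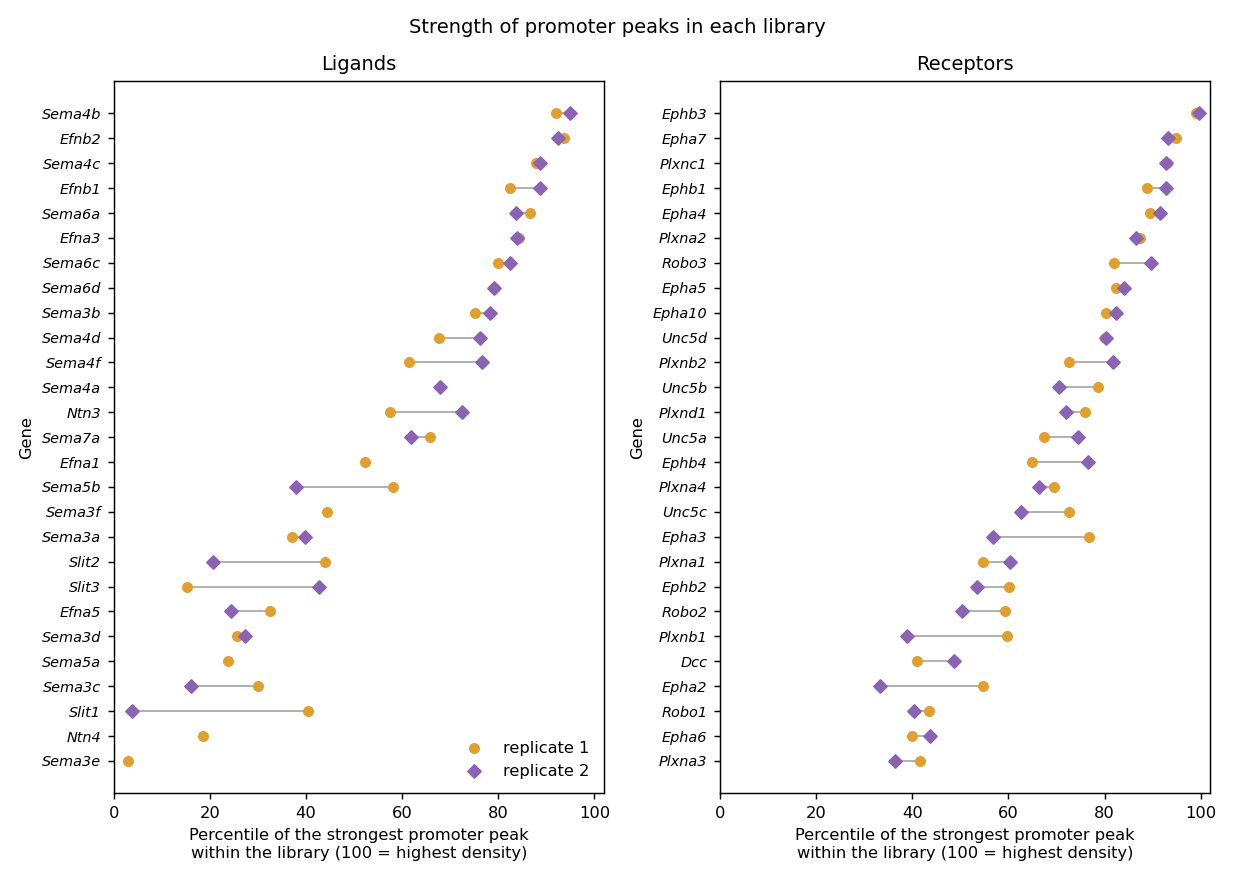
Percentile of the strongest promoter peak within its library (x axis) for each ligand and receptor with a promoter peak (y axis), with circles for replicate 1 and diamonds for replicate 2. Ephb3 lies at 98.9 and 99.7, Slit1 spans 40.5 to 3.87, and genes with 1 symbol had a peak in that library alone.

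The strongest promoter was that of Ephb3, a receptor for B ephrins (chr16:21204755-21223305, mm10, plus strand). Its strongest promoter peak had a density of 14.4 in replicate 1 and 13.0 in replicate 2, at the 98.9th and 99.7th percentiles. The hotspot over its TSS reached a −log10 FDR of 97.6 and 127. Of its 13 footprints in replicate 1, short stretches protected from cleavage as under a bound protein, 12 overlapped a footprint of replicate 2. Because this promoter stood highest of the 67, the 210 bases before its first annotated exon are shown (chr16:21204545-21204754, plus strand, RefSeq GRCm38.p6), with the 92 bases under the 5 footprints found in both libraries in capitals. The choice of this gene for printing was made after its values were seen.
Ephb3: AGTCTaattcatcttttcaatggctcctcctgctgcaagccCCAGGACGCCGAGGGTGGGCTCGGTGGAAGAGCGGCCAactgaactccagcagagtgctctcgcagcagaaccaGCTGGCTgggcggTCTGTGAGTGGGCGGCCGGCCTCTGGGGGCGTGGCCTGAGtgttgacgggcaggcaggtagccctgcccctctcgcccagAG
The stretch held 2 matches to the Sp/KLF letters GGGCGG and a match to E-box CAGCTG, on either strand. Within its gene body and the 10 kb upstream, Ephb3 had 0 distal peaks in either library. When peaks were instead given to the nearest protein-coding TSS, it had 5 and 6, of which 4 were shared.

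Among semaphorins, 13 of 20 had a promoter peak in both libraries: 4 of 7 secreted class 3 genes and 9 of 13 genes of classes 4 to 7. Sema4b and Sema4c, transmembrane semaphorins, had the strongest promoters, with densities of 7.01 and 5.49 for Sema4b and 5.33 and 3.33 for Sema4c in replicates 1 and 2. Sema6a, a ligand of A plexins, followed with 4.90 and 2.50. The class 3 promoters were weaker than those of Sema4b, Sema4c and Sema6a: Sema3b had 2.82 and 1.98, while Sema3a, the prototype repellent of cortical axons, had 1.18 and 0.863. Sema3c and Sema3d had 1.05 and 0.566, and 0.975 and 0.705. Among these 4 genes, Sema3b was highest and Sema3a next in both libraries, while Sema3c and Sema3d changed places. The classes overlapped, since Sema3b was above Sema4d, Sema4f, Sema5b and Sema7a in both libraries.

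Semaphorin promoter peaks found in 1 library alone differed in how much cleavage the other library showed. Sema3e, the ligand of Plxnd1, had a density of 0.509 in replicate 1, at the 3.00th percentile, with 824 and 737 bases under FDR 0.05 within 1 kb of a TSS in replicates 1 and 2. Sema5a had 0.942 in replicate 1, with 1258 and 1000 such bases, and its peak lies within 1 kb of the start of the noncoding gene Snhg18. Sema4a had 1.45 in replicate 2, at the 67.9th percentile, with 614 and 522 such bases. So Sema3e, Sema5a and Sema4a each had bases under FDR 0.05 near a TSS in both libraries. Sema3f, a ligand of neuropilin 2 and A plexins, differed more: its density was 1.33 in replicate 1, with 518 bases against 13 in replicate 2. Sema3g, Sema4g and Sema6b had no promoter peak in either library.

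Plexins had a promoter peak in both libraries for 8 of 9 genes. Plxnc1, the receptor of Sema7a, was the strongest, with densities of 7.46 and 4.48 at an annotated start inside the gene. Plxna2 came next in both libraries, with 5.11 and 2.91. Plxnb2 had 2.56 and 2.30 and Plxnd1 had 2.90 and 1.61, so that they changed places between the libraries. The A plexins that carry class 3 signals differed among themselves: beside Plxna2, Plxna4 had 2.32 and 1.39, Plxna1 1.61 and 1.23, and Plxna3 1.27 and 0.817. Plxnb1, a receptor of Sema4d, had 1.80 and 0.850. Its promoter peaks in the 2 libraries lay at different annotated starts and did not overlap each other. Plxnb3, known from oligodendrocytes, had no promoter peak in either library.

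Ephrins had a promoter peak in both libraries for 4 of 8 genes, 2 of 5 GPI-anchored A ephrins and 2 of 3 transmembrane B ephrins. Efnb2 was the strongest ligand promoter in replicate 1, at 7.94, with 4.38 in replicate 2. Efnb1 had 3.91 and 3.31, and Efna3 4.31 and 2.53. Efna5, which patterns cortical maps, had 4 and 5 promoter peaks, some overlapping each other so that they mark 3 and 4 places. None was above a density of 1.09 in replicate 1 and 0.672 in replicate 2, while the hotspot over its TSS reached a −log10 FDR of 32.9 and 24.6. Efna1 had 1.54 in replicate 1 alone. Efna2, Efna4 and Efnb3 had no promoter peak in either library, although Efna1, Efna3 and Efna4 are neighbours on chromosome 3. Within 1 kb of a TSS, Efna2 and Efna4 had 0 bases under FDR 0.05 in both libraries.

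Eph receptors had a promoter peak in both libraries for 11 of 14 genes, 7 of 9 EphA and 4 of 5 EphB. After Ephb3 came Epha7 in both libraries, with densities of 8.70 and 4.68. Epha4, with 5.83 and 4.03, and Ephb1, with 5.65 and 4.50, changed places between the libraries. Epha7 had 6 and 4 promoter peaks over its 7 annotated start sites, and the 6 include overlapping pairs and mark 4 places. Epha5, a receptor of A ephrins, had 3.91 and 2.56, and Ephb2 1.81 and 1.07. Epha2 had 1.61 and 0.777, which put it at the 54.6th and 33.2nd percentiles, 1 of the 5 largest differences between libraries. Epha1, Epha8 and Ephb6 had no promoter peak in either library. Epha1 and Epha8 had 0 bases under FDR 0.05 within 1 kb of a TSS in both libraries, while Ephb6, a receptor without kinase activity, had 734 and 361.

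All 3 Slits had weak promoter peaks. Slit2 had densities of 1.32 and 0.626, Slit1 1.25 and 0.336, and Slit3 0.801 and 0.902. Slit1, Slit2 and Slit3 were among the 5 genes whose percentile differed most between libraries, with Plxnb1 and Epha2. For Slit1 the peaks of the 2 libraries did not overlap: they were centred 38 bases past the nearest annotated TSS in replicate 1 and 538 bases past it in replicate 2. The peaks of Slit3 lay by an annotated start inside the gene, 543 and 608 bases past it. With a window of 500 bp neither Slit1 nor Slit3 had a promoter peak in both libraries, and Slit1 lost the call also in both read-derived lists and in lists of equal size. Apart from Slit1 and Plxnb1, each of the 48 genes had at least 1 promoter peak of replicate 1 that overlapped a peak of replicate 2, and of the 12027 genes so classed over the genome 0.657% had none.

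Among Robo genes, Robo1 had densities of 1.31 and 0.869, Robo2 1.78 and 1.02, and Robo3, which acts in commissural axons, 3.82 and 3.54. Robo3 lay at the 82.0th and 89.7th percentiles, above both other Robo genes in each library. Its neighbour Robo4, known from endothelium, had no promoter peak and 0 bases under FDR 0.05 near a TSS in either library. The Robo3 peaks were centred at -657 and -677 bases from the nearest annotated TSS, which lies inside the gene. Robo3 therefore lost the call with a window of 500 bp, and no hotspot covered a TSS of it in either library.

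Netrins were the family with the fewest promoter peaks, 1 of 4. Ntn3 had densities of 1.71 and 1.63, and its peak lies within 1 kb of the start of an antisense gene, BC028777, so the 2 promoters cannot be told apart. The same holds for Efnb2, Sema4c, Epha4, Epha6, Epha7, Unc5c and Sema5a, each with a promoter peak within 1 kb of the start of a noncoding or antisense gene. Ntn1, the netrin that acts in midline guidance, had no promoter peak in the main lists and 1 and 3 in the looser lists. Within 1 kb of a Ntn1 TSS, 297 and 585 bases were under FDR 0.05. Ntn4 had 0.856 in replicate 1 alone, and Ntn5 had no promoter peak. The netrin receptors all had promoter peaks: Unc5d had 3.48 and 2.15, Unc5b 3.25 and 1.55, Unc5c 2.56 and 1.28, Unc5a 2.18 and 1.73, and Dcc 1.26 and 0.995. Dcc was the lowest of these receptors in each library.

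CpG-rich promoters were common among these genes, and not all of them had a peak. The highest observed to expected CpG ratio within 500 bp to each side of a TSS was at least 0.6, a usual mark of a CpG island, for 52 of the 67 genes, against 52.5% of all genes. Of those 52, 40 (76.9%) had a promoter peak in both libraries, against 86.7% of all genes with such a ratio. Receptors had one in 22 of 24 cases and ligands in 18 of 28. The ligands at or above 0.6 without a peak in both libraries were Efna1, Efna2, Efna4, Ntn1, Ntn4, Sema3e, Sema3f, Sema4g, Sema5a and Sema6b, and the receptors were Epha8 and Ephb6. Efna2 had a ratio of 0.867 and Epha8 one of 0.881, above the medians of 0.748 and 0.765 of the ligands and receptors with a peak in both libraries.

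A distal peak has its midpoint over 1 kb from every annotated TSS of any gene and lies in the gene body or the 10 kb upstream of it. Shared distal peaks are those of replicate 1 that overlap a peak of replicate 2. The 67 genes held 89 of them, 39 in ligands and 50 in receptors. At least 1 was found in 34 of the 67 genes (17 ligands and 17 receptors), against 21.5% of all genes. The genes with most were Ephb2 with 9, Slit3 with 7, Efna5 with 6, and Slit1, Ephb1, Plxna4, Robo1 and Unc5d with 5 each. These are 8 of 67 genes, while 0.990% of all genes held 5 or more. In replicate 1 the 5 peaks of Ephb1 include a pair that overlap each other, so they mark 4 places.

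Many of these genes are long, and length went with the count. Per 100 kb of gene and upstream DNA, pooled over genes, ligands had 0.816 shared distal peaks, receptors 0.670 and all genes 0.634. Among genes with a span of 200 kb or more, 6 of 9 ligands and 10 of 11 receptors had a shared distal peak, against 74.7% of all genes of that length. From 50 to 200 kb it was 4 of 7 ligands and 6 of 8 receptors, against 38.6%. Below 50 kb it was 7 of 19 ligands and 1 of 13 receptors, against 12.4%. Promoter peaks in both libraries rose with length over all genes, from 47.4% below 50 kb to 72.7% from 50 to 200 kb and 81.3% at 200 kb or more. In the same classes ligands had one in 9 of 19, 6 of 7 and 6 of 9 genes. Receptors had one in 8 of 13, 8 of 8 and 11 of 11.

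**Figure D3:**
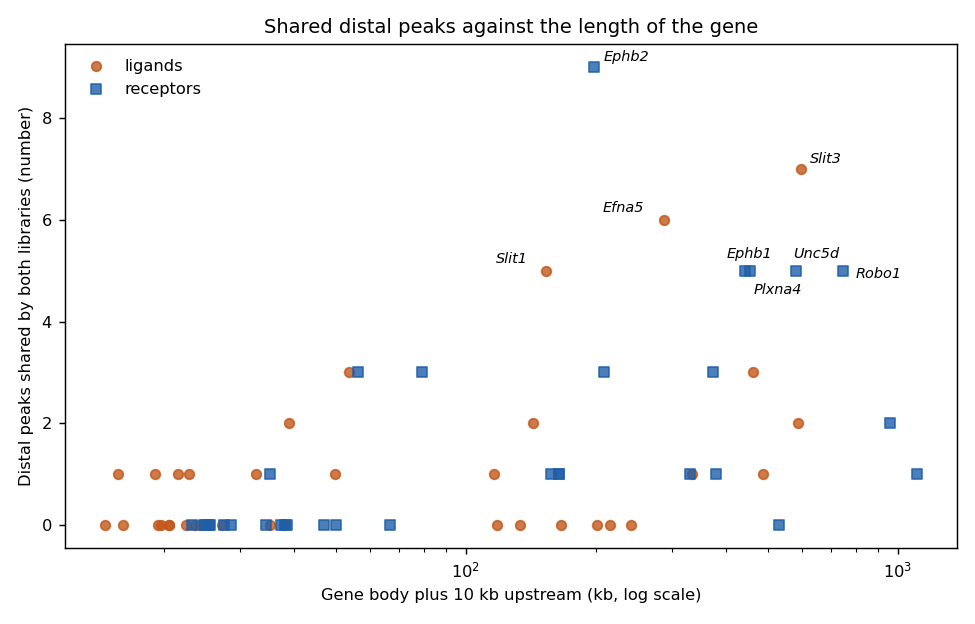
Number of distal peaks shared by both libraries (y axis) against the length of the gene body plus 10 kb upstream (x axis, log scale), 1 symbol a gene, with ligands as circles and receptors as squares. The 8 labelled genes hold 5 to 9 shared distal peaks, and Ephb2 has 9 in 198 kb while Dcc has 1 in 1107 kb.

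Shared distal peaks per 100 kb gave another order of genes. The highest ligands were Ntn3 with 6.38, Efnb2 with 5.58, Efna3 with 5.24, Sema3f with 5.13 and Sema3b with 4.64 shared distal peaks per 100 kb, of which Ntn3, Efna3 and Sema3b rest on 1 peak each. The nearest protein-coding TSS was that of Tbc1d24 for the Ntn3 peak and that of Gnai2 for the Sema3b peak. With a promoter window of 2500 bp, Ntn3 and Efna3 had 0 shared distal peaks. The highest receptors were Plxna1 with 5.33, Ephb2 with 4.54, Unc5b with 3.80, Plxnb2 with 2.84 and Plxna2 with 1.44, of which Plxnb2 rests on 1 peak. Ephb2 was in both orders, with 9 peaks in a span of 198 kb. Dcc, the longest gene of all at 1107 kb, had 1, and its nearest protein-coding TSS was that of Mbd2. Robo2, at 530.0 kb, had 0 shared and 1 unshared distal peak in each library.

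Shared distal peaks of ligands and receptors differed in where they lay, and the genes differed in length. The median span, gene body plus 10 kb upstream, was 39.0 kb in ligands and 72.8 kb in receptors. The part of length in the places below was not tested, and these places were not counted over all genes. In ligands 30 of the 39 were in the gene body and 9 upstream, and in receptors 48 of 50 were in the gene body. The median distance to the nearest TSS of the same gene was 10.8 kb in ligands and 42.0 kb in receptors, with 10 and 22 peaks beyond 50 kb. Their median percentile in replicate 1 was 59.5 in ligands and 39.4 in receptors. For 36 of 39 and 46 of 50 peaks the nearest protein-coding TSS was that of the gene itself.

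In Slit1, Slit3 and Efna5 most shared distal peaks were denser than the strongest promoter peak, while Slit2 had 1 shared distal peak. The 5 of Slit1 lay at -2.50 kb from the gene's 5' end (negative is upstream) and at 5.36, 46.0, 58.0 and 96.5 kb into the gene, with densities from 1.33 to 3.31 in replicate 1, all above its promoter peak at 1.25. Slit3 had peaks at -1.63, 21.7, 162, 287, 331 (a pair) and 466 kb, all of them denser than its promoter peak in replicate 1. In replicate 2 the promoter peak had 0.902, and 3 of the 7 were below it, at 0.830, 0.889 and 0.606. Efna5 showed the same order, with 6 distal peaks of which 5 were denser in replicate 1 than its strongest promoter peak. Of the 6, 3 lay upstream, at -1.61, -2.75 and -3.01 kb. In Ephb2 the 9 peaks were spread from 19.1 to 187 kb into the gene. The densest had 3.91, above its promoter at 1.81.

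**Figure D4:**
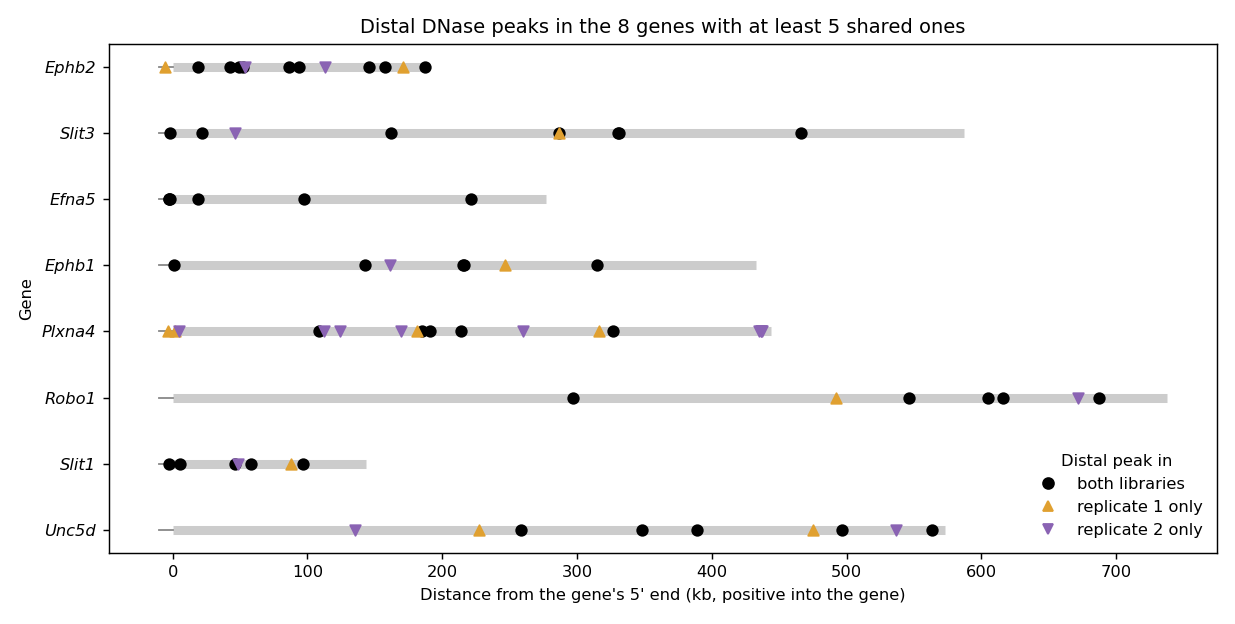
Distal peaks along the 8 genes with at least 5 shared ones, as distance from the 5' end of each gene in kb (x axis), with grey bars for the gene body and thin lines for the 10 kb upstream. Black circles are peaks of replicate 1 shared with replicate 2, and triangles are peaks of 1 library alone; the shared peaks of Robo1 start at 297 kb and those of Unc5d at 258 kb.

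Shared distal peaks with many shared footprints are shown because their protected bases recurred in both libraries, 1 for each of 3 ligands and 3 receptors. A Sema6a peak with 4 shared footprints and a density of 2.97 in replicate 1 was left out, so the printed peaks are not a strict ranking. The printed Efnb2 peak also had 4, at a lower density of 2.35, and the printed Efna5 peak had 3. Among the other peaks, ties went to the denser peak. Each is the plus strand of mm10 over the peak of replicate 1, with bases under footprints found in both libraries in capitals. For Sema3b the peak is chr9:107612701-107612960, at -3.60 kb from its nearest own TSS, where the nearest protein-coding TSS is that of Gnai2. For Efnb2 it is chr8:8650101-8650271 in an intron, and for Efna5 chr17:62882841-62883020, at -1.61 kb. The receptor peaks all lie in introns: chr5:84153181-84153400 in Epha5, chr4:136741881-136742160 in Ephb2 and chr6:32397181-32397440 in Plxna4.
Sema3b: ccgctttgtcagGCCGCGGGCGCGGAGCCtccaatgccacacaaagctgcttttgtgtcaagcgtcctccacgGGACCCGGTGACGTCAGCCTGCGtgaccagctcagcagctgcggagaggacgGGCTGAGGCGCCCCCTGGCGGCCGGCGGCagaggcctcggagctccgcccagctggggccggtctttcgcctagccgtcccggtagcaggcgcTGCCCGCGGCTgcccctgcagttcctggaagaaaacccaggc
Efnb2: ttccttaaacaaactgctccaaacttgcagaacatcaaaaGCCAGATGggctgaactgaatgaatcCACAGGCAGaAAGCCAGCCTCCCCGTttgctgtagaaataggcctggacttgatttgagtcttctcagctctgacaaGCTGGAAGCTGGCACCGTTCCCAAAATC
Efna5: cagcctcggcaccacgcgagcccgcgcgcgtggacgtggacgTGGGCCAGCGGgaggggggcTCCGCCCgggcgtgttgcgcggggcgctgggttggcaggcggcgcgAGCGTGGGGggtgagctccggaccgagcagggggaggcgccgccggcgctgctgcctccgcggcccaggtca
Epha5: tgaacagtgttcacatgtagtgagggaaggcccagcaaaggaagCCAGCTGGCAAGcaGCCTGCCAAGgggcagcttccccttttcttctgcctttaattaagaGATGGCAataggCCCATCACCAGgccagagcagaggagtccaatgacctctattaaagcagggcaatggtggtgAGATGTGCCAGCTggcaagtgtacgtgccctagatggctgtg
Ephb2: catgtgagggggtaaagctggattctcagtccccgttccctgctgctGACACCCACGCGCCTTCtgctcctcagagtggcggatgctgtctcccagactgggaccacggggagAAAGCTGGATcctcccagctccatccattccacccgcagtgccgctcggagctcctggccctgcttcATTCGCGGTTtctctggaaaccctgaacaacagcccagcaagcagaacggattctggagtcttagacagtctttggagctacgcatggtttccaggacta
Plxna4: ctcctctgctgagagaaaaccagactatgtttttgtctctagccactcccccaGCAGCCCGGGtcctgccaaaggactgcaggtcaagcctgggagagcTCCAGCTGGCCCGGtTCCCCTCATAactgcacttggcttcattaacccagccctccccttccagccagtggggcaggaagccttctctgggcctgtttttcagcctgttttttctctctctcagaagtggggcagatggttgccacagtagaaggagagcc
The Sema3b peak was the densest shared distal peak of the 67 genes, at 10.1 and 5.80, the 96.3rd and 95.4th percentiles. A cAMP response element, TGACGTCA, and the CTCF core letters AGGGGGC, on the other strand, fell in its footprints. The Epha5 peak had 5 shared footprints, the most of any, with E-box CAGCTG, the NFI letters TTGGCA and homeodomain TAATTA matches within 10 bp of them. Its density was 1.70 and 1.05. By the same measure the Efnb2 peak held E-box CAGATG, the Efna5 peak the Sp/KLF letters, and the Plxna4 peak CAGCTG and TTGGCA, while the Ephb2 peak held none of the 18 motifs searched. A match names letters and not a bound factor.

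Footprints were counted by midpoint inside peaks, and as shared where they overlapped a footprint of the other library by at least 1 bp. In shared peaks the 67 genes had 301 shared footprints, 139 in ligands and 162 in receptors, and 48 of the 67 genes had at least 1, against 59.0% of all genes. Efna3 had 16, Efna5 and Slit3 14 each among ligands, and Plxna4 and Ephb2 15 each and Ephb3 and Plxnc1 12 each among receptors. By family the totals were 60 for semaphorins, 45 for ephrins, 27 for Slits and 7 for netrins, and 54 for plexins, 74 for Eph receptors, 11 for Robos and 23 for Unc5 genes with Dcc. In Ephb3 all 12 lay in the promoter, while in Slit3 all 14 and in Slit1 all 10 lay in distal peaks.

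Promoter footprints of these genes recurred less often than those of all genes in replicate 1. In the peaks of replicate 1, 53.1% of the promoter footprints of the 67 genes overlapped one of replicate 2, against 69.0% for all genes, and in the peaks of replicate 2 it was 58.0% against 62.1%. For distal footprints the shares were 53.5% against 60.5% in replicate 1 and 39.6% against 42.5% in replicate 2. The promoter peaks themselves followed the same pattern in replicate 1. Of 101 promoter peaks in replicate 1, 71.3% (Wilson 95% interval 61.8 to 79.2) overlapped a peak of replicate 2, against 84.3% for all genes, and of 83 in replicate 2, 88.0% (79.2 to 93.3) overlapped one of replicate 1, against 81.6%. These genes thus had more promoter peaks in the shallower library, whereas all genes had 18719 in replicate 1 and 19584 in replicate 2. The part of depth and of the weaker densities in these shares was not tested. The intervals cover counting error only and take peaks as independent. Many peaks came from the same gene, and some overlapped each other, as in Efna5, Epha7, Plxna4 and Plxnc1. The intervals are therefore too narrow to serve as a test against the shares of all genes.

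**Figure D5:**
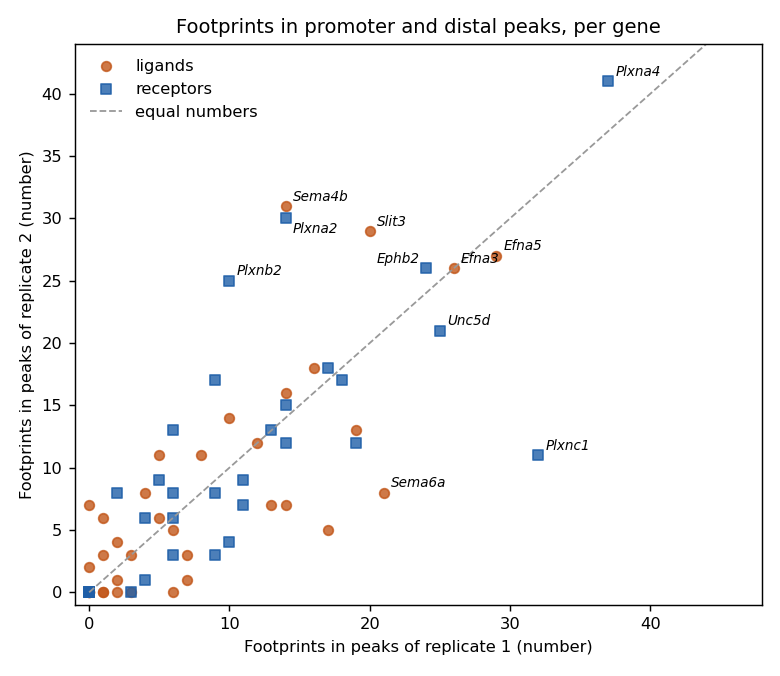
Number of footprints in the promoter and distal peaks of each gene in replicate 1 (x axis) and replicate 2 (y axis), with ligands as circles, receptors as squares and a dashed line where the numbers are equal. Plxna4 has 37 and 41, while Plxnc1 has 32 and 11 and Sema4b has 14 and 31.

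Sequence motifs were searched on both strands in shared footprints with 10 bp to each side. In promoter footprints the Sp/KLF letters GGGCGG occurred in 21 of 74 for ligands and 23 of 99 for receptors, against 25.2% of the promoter footprints of all genes. The ETS letters CCGGAAG, frequent at promoters of broadly used genes, occurred in 0 of 74 and 0 of 99, against 2.98%. The CTCF core AGGGGGC, which can share bases with the Sp/KLF letters, occurred in 8 and 5, against 4.43%. In distal footprints, the NFI letters TTGGCA occurred in 9 of 63 for receptors and 1 of 65 for ligands, against 5.93%, and E-box CAGCTG in 6 and 3, against 4.56%. Both motifs were picked from a longer list, and footprints of the same peak were counted separately. Counted by peak, with a motif window of 200 bp, TTGGCA was in 24 of the 89 shared distal peaks (27.0%), against 22.3% of all shared distal peaks. CAGCTG was also in 24 of the 89 (27.0%), against 23.6%. The counts by peak were not split into ligands and receptors. In RefSeq promoters (GRCm38.p6, 250 bases before to 50 after each start), 73 entries matched 57 of the 67 genes. GGGCGG was in 51 of the 73 (69.9%) against 35.7% of all 32851 entries, AGGGGGC in 17 (23.3%) against 10.6%, and CCGGAAG in 2 (2.74%) against 8.86%. The 32851 entries were not matched to these genes in base composition. Within 500 bp of the TSS with the highest CpG ratio, the median share of G and C was 64.1% in the 67 genes. Over all protein-coding genes it was 56.1%. The entries of 1 gene share sequence, and these motif shares are descriptions.

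Other genes of the pathway were counted the same way. Of 20 coreceptors and further guidance cues, 13 (65%) had a promoter peak in both libraries, against 54.9% of all genes. Among them Nrp1 and Nrp2, the neuropilins that hold class 3 semaphorins, lay at the 63.8th and 58.6th, and the 65.1st and 67.3rd percentiles. Neo1, a relative of Dcc, lay at the 92.1st and 91.2nd, and Rgmb, a ligand of Neo1, at the 97.3rd and 97.9th. Draxin, Cxcl12, Ntng1 and Flrt1 had no promoter peak in either library. Of 44 genes for signalling inside the cell, 42 (95.5%) had one in both, against the same 54.9%. Their median percentiles were 80.9 and 83.5, near the 83.3 and 85.1 of all genes. The exceptions were Dock1 and Vav3, each with a peak in replicate 1 alone. Rhoa, a GTPase at which these pathways meet, lay at the 98.9th and 99.8th percentiles, and Dpysl2 (CRMP2), which carries semaphorin signals to microtubules, at the 98.7th and 97.8th. Both are from the upper part of this list, in which Ngef lay at the 48.8th and 25.5th.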

How the data were processed

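DNase-seq peaks, hotspots and footprints were deposited by the authors per library, in mm10 coordinates. For the aligner and callers, names and versions were not given in the sources used here. Each peak has a density, the signal that the authors scaled by read depth and deposited. Hotspots carry a −log10 FDR, per the file headers. The p-value column of the deposited footprint lists holds the threshold 0.01 in every line, and the deposited per-base tracks hold an FDR, a p-value adjusted by the authors, for bases under 0.05. The main peak list of each library is the one in which every peak held a base under FDR 0.001, as found from those tracks; the looser list reaches 0.05.

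Tools were Python 3.11.15 with numpy 2.4.6, pandas 2.3.3 and pysam 0.24.0, scipy 1.17.1 for intervals, and matplotlib 3.10.9. Within a library all densities fell on multiples of a single step (tolerance 0.05 step), and the ratio of steps gave relative depth. Peaks of 1 list can overlap each other (580 and 661 would be merged away) and were kept as deposited, but a footprint was counted once per gene. With 1 group and 2 libraries, and genes that are not replicates, no test was made. The overlap procedure was tested on simulated data. mm10 is a C57BL/6J assembly, and allele bias in the F1 cross was not examined.

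The members and lists were chosen with earlier results of these data known. Named genes were all without a promoter peak in 1 or both libraries, the 3 strongest promoters per family, the 5 ligands and 5 receptors with most shared distal peaks and most per 100 kb, the 5 largest differences between libraries, and the 3 ligands and 3 receptors with most shared footprints. Other names complete counts and were chosen after their values were seen. Alternatives covered the peak list, promoter window, gene span, overlap, footprint list and each library alone.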

Additional observations from a re-analysis of the deposited data

How the results depend on the processing

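No paired analysis was possible because there is 1 group. Of 121 values recomputed, 92 stayed within 1.5 times the main count or within the spread between libraries, and 29 moved. All counts of promoter peaks stayed within 1.5 times. The order of ligands and receptors in median distal peaks per 100 kb was not stable. Receptors were higher in the main lists. Ligands were higher in the looser list, in each read-derived list, with 50 kb to each side and in each library alone. Shared distal peaks of ligands and receptors (39 and 50) were 90 and 118 in the looser list, 59 and 80 in the smaller and 96 and 118 in the larger read-derived list, 71 for ligands with 50 kb to each side and 86 for receptors by nearest protein-coding TSS. The median per 100 kb, 0 for ligands and 0.149 for receptors, was 2.01 and 1.01 in the looser list, 0.897 for ligands in the smaller and 2.54 and 1.14 in the larger read-derived list, 0.205 for ligands with a 500 bp promoter window, 0.886 and 0.737 with 50 kb to each side, and 0.703 for receptors by nearest TSS. Shared footprints (139 and 162) were 90 and 90 at 50% reciprocal overlap and 106 for receptors with the smaller position-only footprint list of replicate 2, an alternative that, with the larger such list and the merging of overlapping peaks, was chosen after seeing the data. A single library counts all its peaks, with no overlap asked for: without replicate 1 or replicate 2, distal peaks were 58 to 59 for ligands and 73 to 86 for receptors, medians per 100 kb 0.846 to 1.08 and 0.287 to 0.609, footprints 284 to 289 and 338 to 343, promoter peaks 22 to 26 ligands and 27 to 27 receptors, or 49 to 53 genes in all. The cause of the other moves was not tested. The depth is known only as a ratio, so a missing peak is one not detected here. Another threshold for footprints was not run, since the main footprint lists hold 0.01 in every line and the position-only lists state none.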
